A study of Drosophila melanogaster with 9 samples.

Results

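Mitochondrial ribosomal proteins are encoded in the nucleus, made in the cytosol and imported into mitochondria, where they join ribosomal RNAs of the mitochondrial genome to form a ribosome with a large and a small subunit. That ribosome makes the few proteins that mitochondrial DNA encodes, all of them parts of the respiratory chain and ATP synthase in animals. In flies the genes are named mRpL for the large and mRpS for the small subunit. All genes whose symbol begins with mRpL or mRpS and a number, and that had a probe set annotated to that gene alone, were taken here, with the probe set of highest mean signal where a gene had several. This gave 69 of the 11982 genes measured, of which 44 carry large subunit and 25 small subunit symbols. The annotation holds 73 such symbols, and the other 4 were not analysed here: no probe set was named for mRpL34 and mRpL37, and those of mRpL53 and mRpS10 were annotated to several genes. A symbol is not always a place in the ribosome, since the human counterparts of mRpS18A and mRpS30 sit in the large subunit.

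RNA came from mesodermal cells of Drosophila embryos at stage 11 to early stage 12, grown at 25 °C, which were sorted by fluorescence for green fluorescent protein and hybridised to Affymetrix arrays, 1 biotin-labelled sample per array. All 9 arrays come from embryos carrying the driver twi-GAL4 and the reporter UAS-2EGFP, so the sorted cells are those in which the twist driver was active. The 3 control arrays carry no deletion, the 3 CHES-1-like null arrays come from embryos with the X chromosome deletion Df(1)CHES-1-like1, and the 3 jumu deficiency arrays from homozygotes for Df(3R)Exel6157, which the labels call a jumu null and in which driver and reporter lie on different homologues. The targeted genes CHES-1-like and jumu each code for a transcription factor with a Forkhead domain, and each mutant is represented by a single deletion. The labels do not say whether replicates are separate collections or sorts of embryos, so the spread behind every p-value is that between arrays and may be technical.

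Each targeted gene was lowest in its own mutant. CHES-1-like had a mean log2 signal of 12.00 in controls, 4.04 in its null and 11.39 in the jumu deficiency, and jumu had 10.52 in controls, 10.67 in CHES-1-like nulls and 8.13 in the jumu deficiency. Odorant and gustatory receptor genes, with 125 probe sets, served as a background, and the 95th percentile of their log2 signal was 5.28. CHES-1-like was below that level in its null, whereas jumu stayed above it in the jumu deficiency, at 0.19 times its control signal. CHES-1-like was also called lower in the jumu deficiency, by -0.61 ± 0.13 (limma adjusted p = 0.00557). No member lies within 20 measured genes of either targeted gene: the nearest are mRpL30, 237 genes from CHES-1-like, and mRpL40, 94 genes from jumu.

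All members were well above background on every array. Their mean log2 signal ranged from 8.86 for mRpL54 upwards, which placed them between percentiles 68.3 and 93.4 of all genes with a median of 82.3, and 0 members had an array below the receptor background. Probe sets differ in how they bind their transcript, so these levels say nothing of which ribosomal protein is made most. The brightest probe sets were those of mRpS5, mRpS7 and mRpS22, and the dimmest were those of mRpL48, mRpL11 and mRpL54. Replicate arrays were close: the median SD of a member within its group was 0.02 on the log2 scale in controls, 0.04 in CHES-1-like nulls and 0.03 in the jumu deficiency.

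In CHES-1-like nulls nearly the whole ribosomal gene set was lower than in controls. Of 69 genes, 65 fell, 1 rose (mRpL33) and 3 did not pass (mRpS5, mRpS6 and mRpS7), by limma with Benjamini-Hochberg adjustment over all probe sets and a threshold of 0.05. Across all probe sets tested 14.9% were called lower and 14% higher, and among the 3797 genes at least as bright as the dimmest member 30.4% were called lower and 25.7% higher. The median member change was -0.34 on the log2 scale, 21.1% less signal, against 0.02 over all genes, and the middle of the members lay between quartiles of -0.43 and -0.23. The changes were small and alike: 49 members lay between -0.5 and -0.2, and 1 fell by at least 1.5-fold (mRpS18C), as 2.57% of all probe sets did.

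The shift was present on each array. The median log2 signal of the members was 10.16, 10.14 and 10.11 on the control arrays, 9.83, 9.84 and 9.79 on the CHES-1-like null arrays, and 10.14, 10.13 and 10.18 on the jumu deficiency arrays. The 3 CHES-1-like null arrays thus lay below the other 6, which overlapped each other. On those 3 arrays 68, 68 and 69 of the 69 genes were below their own mean over the 9 arrays. In 63 members all 3 CHES-1-like null arrays were below all 6 others, and in 65 the CHES-1-like null had the lowest mean of the groups. The same held for 11.5% and 28.8% of all probe sets, and for 26.9% and 37.3% of genes as bright as the members. In 66 members the CHES-1-like null arrays all lay below the control arrays and in 1 above them, against 20.4% and 22.3% of all probe sets and 40.7% and 36.9% of genes as bright as the members. In a bulk sample fewer cells with a transcript and less of it per cell cannot be told apart.

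**Figure D1:**
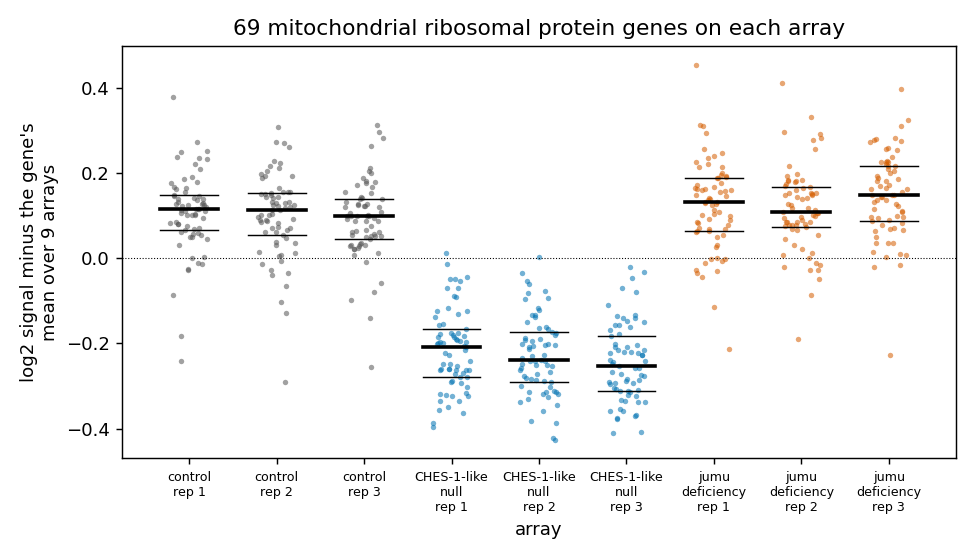
Each point is 1 of the 69 mitochondrial ribosomal protein genes on 1 array, as its log2 signal minus the gene's mean over the 9 arrays; thick bars are medians and thin bars quartiles. The 3 CHES-1-like null arrays have medians of -0.21, -0.24 and -0.25, while control and jumu deficiency arrays have medians from 0.10 to 0.15.

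Both subunits took part. Of the large subunit genes 43 of 44 fell, with a median change of -0.36, and of the small subunit genes 22 of 25 fell, with a median of -0.30. The members were also divided by number alone, into numbers that bacterial ribosomal proteins also carry (bacterial-type) and higher ones (mitochondria-specific). A number does not settle the origin of a protein, so these classes are labels and not a division by ancestry. All 17 large subunit genes and all 12 small subunit genes with mitochondria-specific numbers fell, with median changes of -0.38 and -0.37. Among genes with bacterial-type numbers 26 of 27 in the large subunit and 10 of 13 in the small subunit fell, with medians of -0.30 and -0.27, so the 4 genes that did not fall all carry bacterial-type numbers. The ranges of these classes overlap and the difference between them was not tested.

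Among small subunit genes the furthest from control was mRpS18C, which encodes 1 of the animal S18 paralogues. It read 10.65, 10.68 and 10.66 on the control arrays, 9.98, 9.95 and 10.04 in CHES-1-like nulls and 10.48, 10.46 and 10.47 in the jumu deficiency. The 3 groups do not overlap, with the CHES-1-like null lowest and the jumu deficiency between it and control. The change in CHES-1-like nulls was -0.67 ± 0.04 (SE of the fit, 3 arrays a group), or 0.627 times the control signal, with a limma adjusted p of 2.33e-06.

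The mitochondria-specific small subunit gene mRpS35 read 10.07, 10.05 and 10.03 in controls, 9.53, 9.47 and 9.44 in CHES-1-like nulls and 10.04, 10.02 and 10.02 in the jumu deficiency. Here control and jumu deficiency arrays overlapped and only the CHES-1-like null stood apart. The change in CHES-1-like nulls was -0.57 ± 0.04 (limma adjusted p = 7.23e-06). The next was mRpS18A, with a change of -0.56 ± 0.04. A like size was seen for mRpS29, the fly counterpart of human DAP3, a GTP-binding protein of the small subunit, at -0.48 ± 0.04, which was chosen after its value was seen.

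In the large subunit the furthest were mRpL3, mRpL21 and mRpL20. In bacteria L3 and L20 are needed early in the assembly of the large subunit. The mRpL3 probe set read 9.76, 9.77 and 9.77 in controls, 9.26, 9.19 and 9.17 in CHES-1-like nulls and 9.50, 9.55 and 9.58 in the jumu deficiency, 3 groups that do not overlap. Its change in CHES-1-like nulls was -0.56 ± 0.04 (limma adjusted p = 1.13e-05), and those of mRpL21 and mRpL20 were -0.55 ± 0.04 and -0.54 ± 0.05. The stalk proteins L10 and L12, which recruit translation factors to the ribosome in bacteria, are encoded by mRpL10 and mRpL12, and these fell by 0.45 and 0.47. In all of these genes the CHES-1-like null arrays were below every control array.

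The exceptions were few and differed from each other. mRpL33, the gene of a small protein of the large subunit, read 10.20, 10.15 and 10.18 in controls, 10.37, 10.40 and 10.41 in CHES-1-like nulls and 10.75, 10.77 and 10.72 in the jumu deficiency. It was the only member higher in both mutants, by 0.22 ± 0.04 in CHES-1-like nulls (limma adjusted p = 0.00194) and by 0.57 ± 0.04 in the jumu deficiency (3.62e-06). mRpS7, whose bacterial counterpart organises the head of the small subunit, read 11.24, 11.20 and 11.24 in controls, 11.22, 11.21 and 11.19 in CHES-1-like nulls and 11.18, 11.20 and 11.20 in the jumu deficiency. The group means lie between 11.19 and 11.23, with the jumu deficiency arrays just below the control arrays, and it was the only member with no call in any comparison.

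mRpS5, whose bacterial counterpart lies near the entry of the mRNA channel, read 11.14, 11.12 and 11.13 in controls, 11.21, 11.17 and 11.09 in CHES-1-like nulls and 11.39, 11.34 and 11.43 in the jumu deficiency. Only the jumu deficiency arrays lay apart, above the rest. The change was 0.03 ± 0.04 in CHES-1-like nulls (limma adjusted p = 0.69) and 0.26 ± 0.04 in the jumu deficiency (0.00175). mRpS6, the gene of a protein that pairs with S18 in bacteria, had a change of -0.12 ± 0.04 in CHES-1-like nulls, with a limma adjusted p of 0.0551, just short of the threshold. Its CHES-1-like null arrays did lie below all control arrays, and it passed in 3 of 14 alternatives, one of them without the lower 40% of probe sets.

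**Figure D2:**
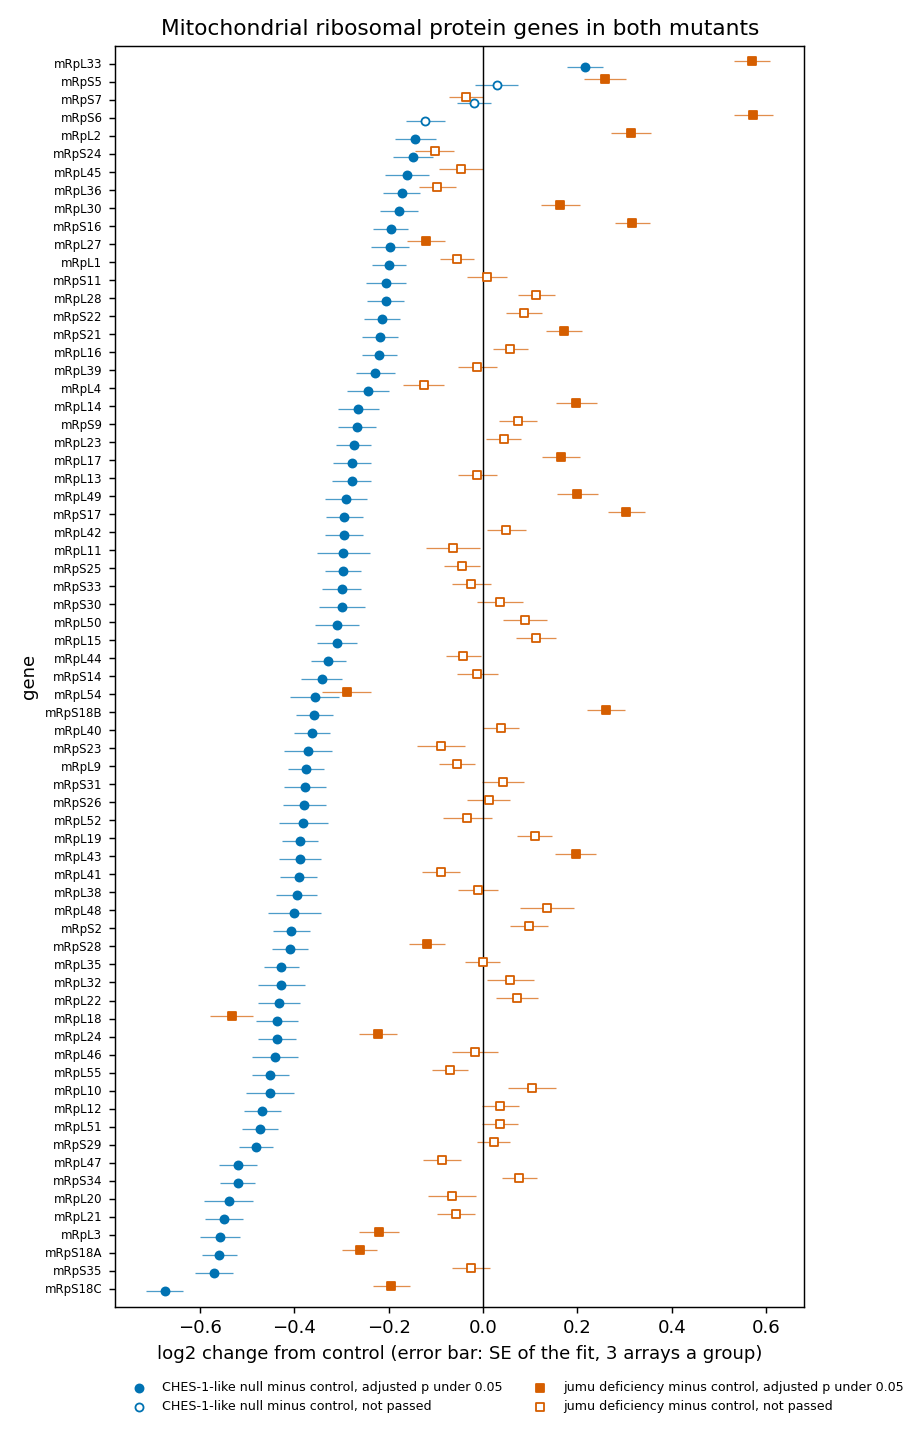
Log2 change from control of each of the 69 genes in CHES-1-like nulls (circles) and in the jumu deficiency (squares), with the SE of the fit as error bars and filled symbols for adjusted p under 0.05; genes are ordered by their change in CHES-1-like nulls. The circles run from -0.67 for mRpS18C to 0.22 for mRpL33 and nearly all lie left of zero, while the squares run from -0.53 to 0.57 on both sides of it.

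Markers of other cell types differed between the groups, and so did RNA quality readings, though not all in the same direction. Their part in the changes of the ribosomal genes was not tested. Of the mesoderm markers twi, htl, sna, zfh1 and bap, 1 rose (sna) and 1 fell (htl) in CHES-1-like nulls, and their summed linear signal was 7126 to 7403 in controls, 7405 to 7439 in CHES-1-like nulls and 7773 to 8347 in the jumu deficiency. All 5 epidermis markers rose in CHES-1-like nulls, with sums of 4890 to 5085 in controls, 8207 to 8499 in CHES-1-like nulls and 4111 to 4183 in the jumu deficiency. All 4 cell division genes rose as well, with sums of 8949 to 9186, 11688 to 12546 and 7051 to 7455 in the same order. Neural markers (3 of 6 rose in CHES-1-like nulls) summed to 7024 to 7217, 7708 to 8049 and 4804 to 6353, and endoderm markers (2 of 3 rose) to 1247 to 1295, 1698 to 1810 and 1330 to 1370. Haemocyte markers (1 of 6 rose) summed to 15926 to 16265, 17123 to 17198 and 17298 to 17912, and germ cell markers (2 of 4 rose, 1 fell) to 1673 to 1693, 1576 to 1713 and 1518 to 1571, with vas and the haemocyte gene He within the receptor background. In the jumu deficiency 4 mesoderm markers rose and 1 fell, 4 neural markers fell and 1 rose, 3 epidermis markers fell, 2 cell division genes fell, 2 haemocyte markers and 1 endoderm marker rose, and 1 germ cell marker fell. Of all genes 35.7% were called either way in CHES-1-like nulls and 38.6% in the jumu deficiency. Among genes as bright as the members these shares were 56.1% and 53.3%. Not every marker planned was summed: Mef2, tin and how are absent from the mesoderm list. The neural, epidermis, germ cell and cell division lists also hold fewer genes than planned, so their counts are not of complete lists. The 3′ minus 5′ log2 signal of the actin control transcript was 1.04 ± 0.01 (SD, n = 3) in controls, 0.94 ± 0.06 in CHES-1-like nulls and 1.26 ± 0.03 in the jumu deficiency. For eIF-4a the same means were 1.07, 1.15 and 1.35, and for 18S rRNA 0.95, 0.81 and 0.76. For GAPDH the control and jumu deficiency means were 0.34 and 0.42, and the CHES-1-like null arrays read 0.26, 0.19 and -0.21, with replicate 3 far from the others.

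In the jumu deficiency the ribosomal genes split. Compared with the same controls, 13 rose, 8 fell and 48 did not pass (limma), where 14.8% of all probe sets were called higher and 17.3% lower, and among genes as bright as the members 21.9% and 31.3%. Neither share of members called was above that of genes as bright. With each array centred on its median 8 rose and 13 fell, and the median member change of 0.01, close to that of all genes, became -0.0459. Other settings gave 18 higher and 6 lower with quantile normalization, 17 and 6 with centring on the brighter 60% of probe sets, 18 and 11 without the lower 40%, and 19 and 12 with a variance trend and robust estimation. The sizes ranged from -0.53 to 0.57, with an SD over members of 0.17, against 0.15 in CHES-1-like nulls. In 29 members the jumu deficiency arrays lay above all control arrays and in 20 below them, against 23.7% and 23.1% of all probe sets and 32% and 42% of genes as bright.

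Several of the genes higher in the jumu deficiency carry small subunit symbols with bacterial-type numbers. In that class, which is set by number alone and includes mRpS18A, 6 of 13 rose and 2 fell, with a median change of 0.10. Of the small subunit genes with mitochondria-specific numbers 0 of 12 rose and 1 fell by limma (1 higher and 2 lower at an unadjusted p under 0.05). In the large subunit 5 of 27 genes with bacterial-type numbers rose and 4 fell, and 2 of 17 with mitochondria-specific numbers rose and 1 fell. Called either way were 61.5%, 8.33%, 33.3% and 17.6% of these classes in that order. Among genes as bright as the members 53.3% were called, 21.9% higher and 31.3% lower. The call of mRpS21, 1 of the 6 that rose, was lost with each array centred on its median. These differences between classes were not tested.

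The highest change in the jumu deficiency was that of mRpS6. It read 9.38, 9.44 and 9.43 in controls, 9.32, 9.31 and 9.24 in CHES-1-like nulls and 10.02, 9.98 and 9.96 in the jumu deficiency, whose arrays were far above the rest. The change was 0.57 ± 0.04 (limma adjusted p = 6.34e-06), or 1.49 times the control signal. Next to mRpL33, which is given above, came mRpS16 at 0.32 ± 0.04, mRpL2 at 0.31 ± 0.04, mRpS17 at 0.30 ± 0.04 and mRpS18B at 0.26 ± 0.04. In bacteria S16 and S17 join the small subunit early, and L2 lies next to the catalytic centre of the large subunit.

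The lowest change in the jumu deficiency was that of mRpL18. It read 10.44, 10.34 and 10.38 in controls, 9.94, 10.00 and 9.91 in CHES-1-like nulls and 9.85, 9.87 and 9.84 in the jumu deficiency, so that both mutants lay below control with the jumu deficiency lowest. The change was -0.53 ± 0.04 in the jumu deficiency (limma adjusted p = 1.74e-05) and -0.44 ± 0.04 in CHES-1-like nulls. In bacteria L18 binds the 5S ribosomal RNA. The dim probe set of mRpL54, the gene of a mitochondria-specific protein, read 9.09, 9.06 and 9.07 in controls, 8.77, 8.76 and 8.62 in CHES-1-like nulls and 8.75, 8.77 and 8.84 in the jumu deficiency. Both mutants lay below control and overlapped each other, with changes of -0.36 ± 0.05 and -0.29 ± 0.05.

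**Figure D3:**
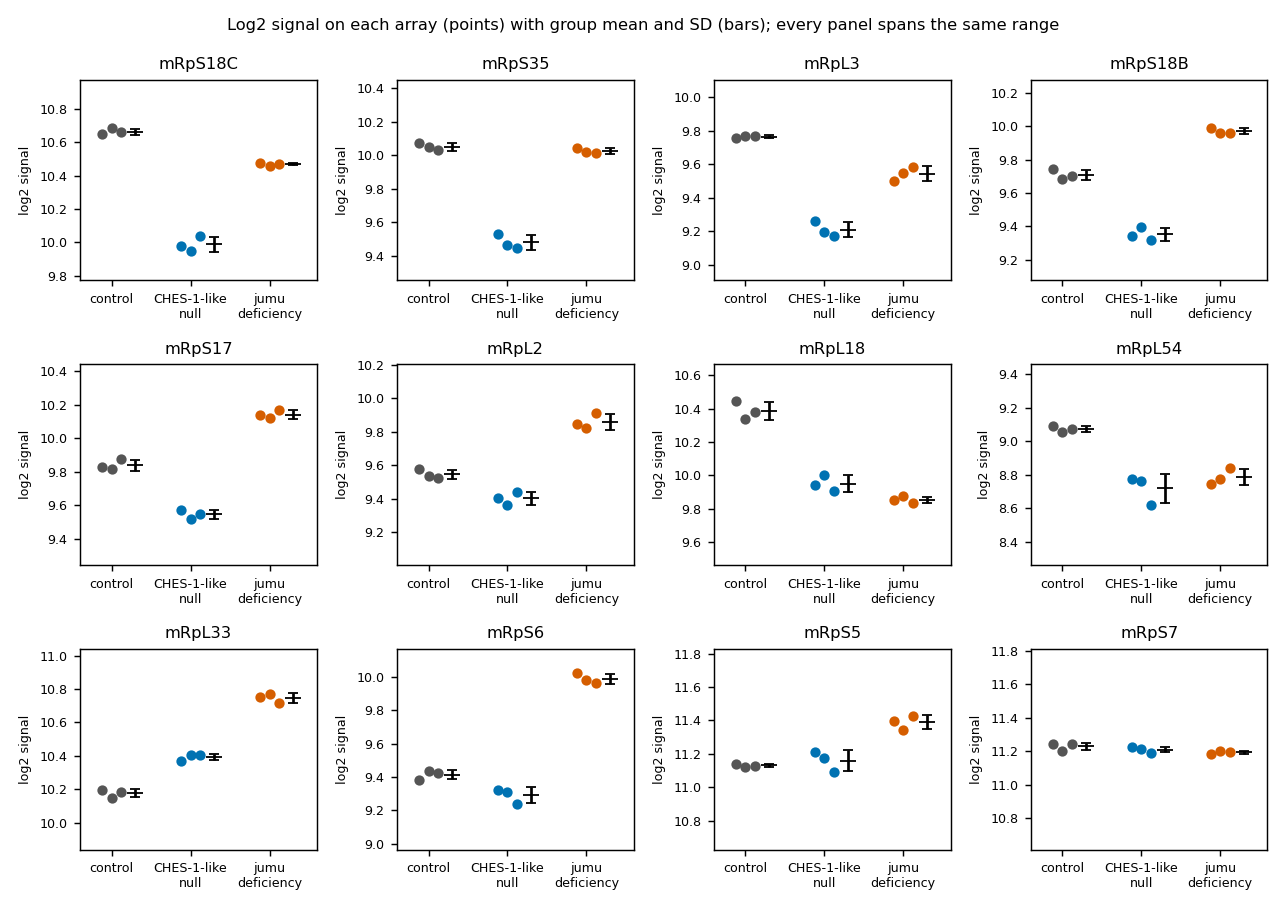
Log2 signal of 12 genes on each array (points) with group mean and SD (bars); each panel spans the same range of log2 signal, placed at that gene's level. mRpS18C, mRpS35 and mRpL3 are lowest in CHES-1-like nulls, mRpS18B, mRpS17 and mRpL2 are low in it and high in the jumu deficiency, mRpL18 and mRpL54 are low in both mutants, mRpL33 is high in both, mRpS6 and mRpS5 are high in the jumu deficiency, and the means of mRpS7 lie between 11.19 and 11.23.

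Calls in both mutants rest on the same 3 control arrays, so they are given side by side and read together only through the direct comparison of the mutants. Of the 69 genes 43 fell in CHES-1-like nulls, did not pass in the jumu deficiency and were higher in the jumu deficiency than in CHES-1-like nulls, as did 4.71% of all probe sets and 11.4% of genes as bright. In 10 genes the calls were opposite, lower in CHES-1-like nulls and higher in the jumu deficiency, as in 2% of all probe sets and 4.06% of genes as bright. Of genes lower in CHES-1-like nulls, the opposite call was made for 10 of 65 members and 154 of 1155 genes as bright. mRpS17 shows the opposite calls: it read 9.83, 9.81 and 9.87 in controls, 9.57, 9.52 and 9.55 in CHES-1-like nulls and 10.14, 10.12 and 10.17 in the jumu deficiency, which places the 3 groups apart with control in the middle. mRpS18B did the same, at 9.74, 9.68 and 9.70 in controls, 9.34, 9.40 and 9.32 in CHES-1-like nulls and 9.99, 9.96 and 9.96 in the jumu deficiency.

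The other 8 opposite genes were mRpS16, mRpS21, mRpL2, mRpL14, mRpL17, mRpL30, mRpL43 and mRpL49, with changes between -0.14 (mRpL2) and -0.39 (mRpL43) in CHES-1-like nulls and between 0.16 (mRpL30) and 0.32 (mRpS16) in the jumu deficiency. The smallest of these calls moved with the settings. The call of mRpL2 in CHES-1-like nulls (limma adjusted p = 0.0331) was lost in 7 of 14 alternatives, among them those without replicate 1 or 2 of the CHES-1-like null or without any 1 control array, and its adjusted p reached 0.109. The jumu deficiency calls of mRpL17, mRpL30, mRpL43, mRpL49 and mRpS21 were lost with each array centred on its median, that of mRpL17 also without control replicate 1 and that of mRpL30 also without control replicate 2, and their adjusted p-values reached 0.158.

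A further 8 genes fell in both mutants: mRpS18A, mRpS18C, mRpS28, mRpL3, mRpL18, mRpL24, mRpL27 and mRpL54. The same call was made for 6.89% of all probe sets and 13% of genes as bright, so 8 of 69 is near that share. Of genes lower in CHES-1-like nulls, 8 of 65 members also fell in the jumu deficiency, against 494 of 1155 genes as bright. The difference was not tested. mRpL24, whose bacterial counterpart starts the assembly of the large subunit, read 9.57, 9.55 and 9.54 in controls, 9.12, 9.09 and 9.13 in CHES-1-like nulls and 9.30, 9.31 and 9.39 in the jumu deficiency, with the jumu deficiency between the other groups. Its changes were -0.44 ± 0.04 and -0.22 ± 0.04. In the jumu deficiency the falls of mRpS18A, mRpL3 and mRpS18C were -0.26 ± 0.04, -0.22 ± 0.04 and -0.19 ± 0.04. Those of mRpL27 and mRpS28 were the weakest, -0.12 each, with limma adjusted p-values of 0.0452 and 0.0413 that rose to 0.132 and 0.174 under alternatives and did not pass in 9 of 14, including those without any 1 array of either group. The S18 paralogues therefore differed among themselves in the jumu deficiency: mRpS18A and mRpS18C fell and mRpS18B rose.

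Compared directly, the jumu deficiency was higher than the CHES-1-like null in 61 of 69 members, and 8 did not pass (limma). No member was lower, nor was any at an unadjusted p under 0.05, while 1 (mRpL18) was lower under a variance trend with robust estimation. Across all probe sets 16.9% were called higher and 17.5% lower, and among genes as bright as the members 31.1% and 32.1%. The median member difference was 0.35, against 0.00 over all genes. In 65 members the jumu deficiency arrays all lay above the CHES-1-like null arrays and in 1 below, against 21.8% of all probe sets in each direction and 38.4% and 38.2% of genes as bright.

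The widest differences between the mutants were those of mRpS6 at 0.70 ± 0.04, mRpS18B at 0.62 ± 0.04, mRpS17 and mRpS34 at 0.60 ± 0.04, mRpL43 at 0.58 ± 0.04 and mRpL10 at 0.55 ± 0.05. mRpS34, a mitochondria-specific gene, read 9.76, 9.72 and 9.75 in controls, 9.20, 9.23 and 9.22 in CHES-1-like nulls and 9.84, 9.79 and 9.82 in the jumu deficiency. There the CHES-1-like null alone was far from the rest, since its change from control was -0.52 ± 0.04 and that of the jumu deficiency 0.08 ± 0.04 (limma adjusted p = 0.156). The differences of mRpS6, mRpS18B, mRpS17 and mRpS34 reached 1.5-fold, which 3.78% of all probe sets did in that direction.

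Probe sets of every brightness were lower in CHES-1-like nulls. The mean log2 signal and the change in CHES-1-like nulls were compared across the 69 members, which share arrays and controls. Pearson's r was 0.38 and Spearman's rho 0.36, so brighter probe sets tended to be nearer to control. In the jumu deficiency r was 0.16 and rho 0.18. The brightest probe sets, mRpS5, mRpS7 and mRpS22, had changes of 0.03, -0.02 and -0.21 in CHES-1-like nulls, and the dimmest, mRpL48, mRpL11 and mRpL54, had -0.40, -0.30 and -0.36. These are descriptions across genes, which are not independent replicates. Where a member had a second probe set it went the same way in CHES-1-like nulls: mRpL47 was at -0.52 and -0.54, and mRpS11 at -0.20 and -0.24. In the jumu deficiency the brighter probe set of mRpL47 was at -0.09 (limma adjusted p = 0.135) and the other at -0.17 (0.0132), and those of mRpS11 were at 0.01 and -0.07, neither of which passed.

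**Figure D4:**
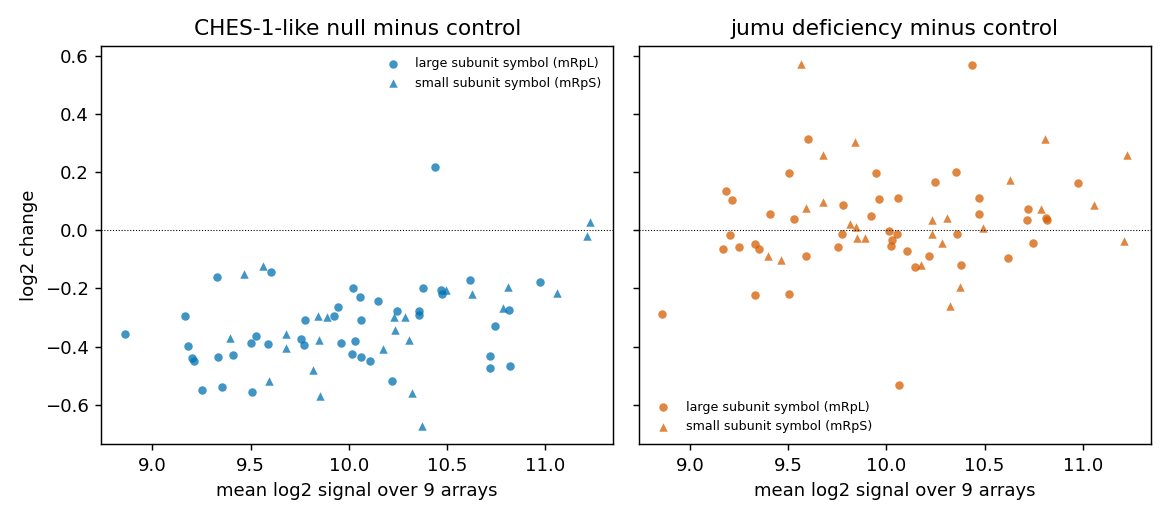
Log2 change from control against the mean log2 signal over 9 arrays for large subunit (circles) and small subunit (triangles) symbols, in CHES-1-like nulls (left) and in the jumu deficiency (right). In CHES-1-like nulls genes of every brightness lie below zero, apart from mRpL33 and mRpS5. The brightest genes, mRpS5 and mRpS7, are nearest to zero, while other bright genes are further from it. In the jumu deficiency the points scatter on both sides.

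Genes of mitochondrial ribosomal proteins under other symbols are not among the 69. technical knockout (tko) encodes the S12 protein of the decoding centre. It read 10.57, 10.51 and 10.52 in controls, 10.05, 10.06 and 10.05 in CHES-1-like nulls and 10.43, 10.49 and 10.54 in the jumu deficiency, where the CHES-1-like null stood apart and the others overlapped. Its change was -0.48 ± 0.04 in CHES-1-like nulls (limma adjusted p = 3.17e-05) and -0.04 ± 0.04 in the jumu deficiency (0.499). bonsai, which the annotation lists with the synonym mRpS15, was looked up after the members' values were seen. It had a change of -0.33 ± 0.04 in CHES-1-like nulls (limma adjusted p = 0.000309) and of 0.07 ± 0.04 in the jumu deficiency (0.289). CG4866 was looked up alongside tko and bonsai, but its symbol names no ribosomal protein and it is not counted as one here. It was nearer to control in CHES-1-like nulls. Its changes were -0.15 ± 0.05 there (limma adjusted p = 0.0416) and 0.12 ± 0.05 in the jumu deficiency (0.072).

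The rest of the apparatus for mitochondrial gene expression was also mostly lower in CHES-1-like nulls. Of 11 genes for mitochondrial RNA processing and ribosome assembly 11 fell, with a median change of -0.52. Of 17 aminoacyl-tRNA synthetase and related genes 12 fell (median -0.37), of 8 translation factors 5 fell and 1 rose (-0.29), of 10 genes of mitochondrial DNA maintenance and transcription 8 fell (-0.28), and of 18 protein import genes 11 fell (-0.25). Of all 11982 genes 2231 fell and 2045 rose, and of the 3797 genes as bright as the members 1155 fell and 976 rose. That brighter pool starts at a mean log2 signal of 8.86. The RNA processing genes, translation factors and synthetases had control medians of 8.76, 8.83 and 7.38, so the pool is not matched to these lists. The genes of cytosolic ribosomal proteins are the closest class by function outside mitochondria, and of 41 measured 5 fell, with a median of -0.03. Their probe sets had a median log2 signal of 14.4 in controls, near the top of the scale, where a signal can be compressed. The difference between the lists was not tested.

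In the jumu deficiency the related lists were more divided, although their counts rest on the same controls. Of the RNA processing and assembly genes 6 of 11 fell (median -0.21), of the translation factors 4 of 8 fell and 1 rose (-0.21), and of the DNA maintenance and transcription genes 4 of 10 fell and 1 rose (-0.10). Of the synthetases 4 fell and 3 rose of 17 (0.02), of the import genes 4 fell and 4 rose of 18 (-0.01), and of the cytosolic ribosomal protein genes 1 fell and 1 rose of 41 (0.01). Called either way were 54.5%, 62.5%, 50%, 41.2%, 44.4% and 4.88% of these lists in that order. The same shares were 38.6% of all genes and 53.3% of genes as bright as the members. The latter share is not matched to the dimmer lists given above. The medians of the translation factors and of the RNA processing genes were thus below the ribosomal protein median of 0.01, a difference that was not tested.

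**Figure D5:**
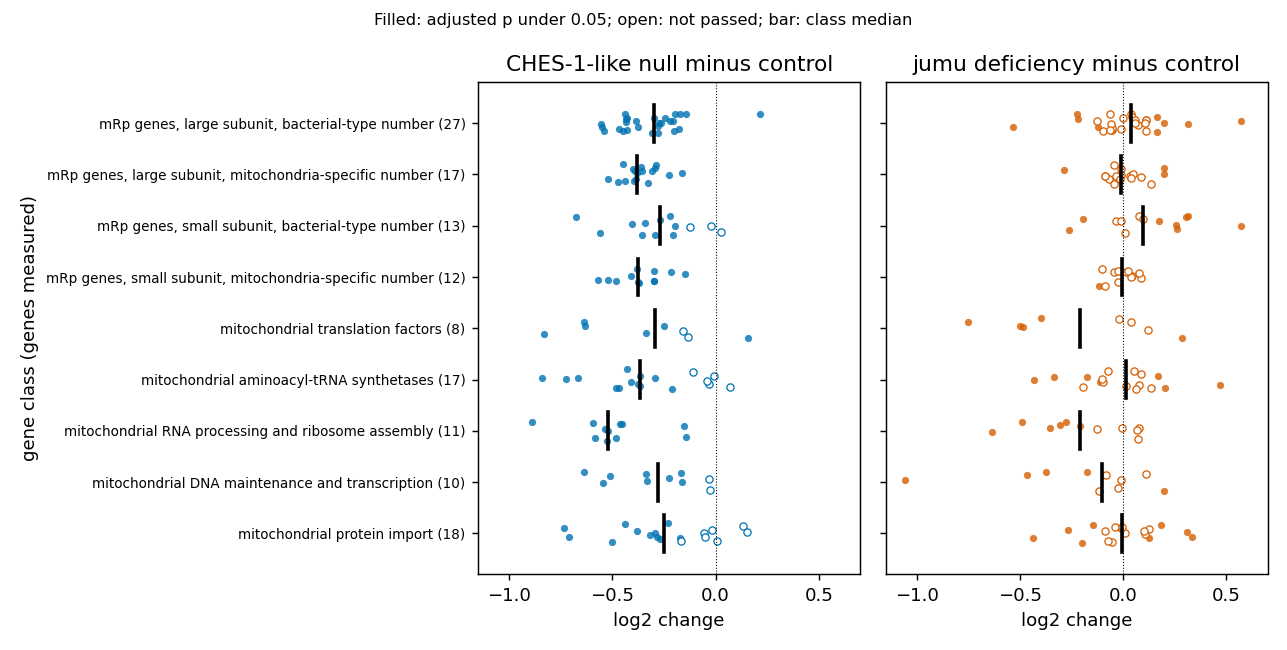
Log2 change from control of the members in 4 classes by subunit and number and of 5 related mitochondrial gene lists, in CHES-1-like nulls (left) and in the jumu deficiency (right); filled points passed adjusted p under 0.05 and bars are medians. All medians on the left lie between -0.52 and -0.25; on the right those of the translation factors and of RNA processing and ribosome assembly are at -0.21, and the others lie between -0.10 and 0.10.

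Among the translation factors the elongation factor genes mEFTu1, mEFG1 and mEFTs had the lowest changes in CHES-1-like nulls. mEFTu1, which brings aminoacyl-tRNA to the ribosome, read 11.71, 11.76 and 11.71 in controls, 10.88, 10.91 and 10.90 in CHES-1-like nulls and 11.37, 11.26 and 11.35 in the jumu deficiency, with the groups apart. Its changes were -0.83 ± 0.04 and -0.40 ± 0.04 in the mutants, and those of the translocase gene mEFG1 were -0.64 ± 0.04 and -0.50 ± 0.04. mEFTs, which reloads EF-Tu with GTP, was the lowest translation factor in the jumu deficiency, at -0.75 ± 0.04, with -0.63 ± 0.04 in CHES-1-like nulls. A second EF-Tu gene, mEFTu2, chosen after its value was seen, was nearer to control, at -0.25 ± 0.04 in CHES-1-like nulls and -0.02 ± 0.04 in the jumu deficiency, where it did not pass (limma adjusted p = 0.744). The recycling factor gene mRRF1 rose in both, by 0.16 ± 0.05 and 0.28 ± 0.05.

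Among the synthetases PheRS-m fell in both mutants, by 0.84 in CHES-1-like nulls and by 0.43 in the jumu deficiency. IleRS-m read 7.34, 7.38 and 7.40 in controls, 6.53, 6.67 and 6.74 in CHES-1-like nulls and 7.80, 7.87 and 7.86 in the jumu deficiency. Its groups are apart in opposite directions from control, with changes of -0.72 ± 0.06 and 0.47 ± 0.06, and CysRS-m did the same with -0.38 ± 0.04 and 0.20 ± 0.04. GluRS-m had a change of -0.04 ± 0.09 in CHES-1-like nulls, which did not pass, and of -0.33 ± 0.09 in the jumu deficiency (limma adjusted p = 0.0156).

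For RNA handling SLIRP2, whose human counterpart stabilises mitochondrial mRNAs, changed by -0.89 ± 0.10 and -0.49 ± 0.10 in the mutants. mldr and rswl encode subunits of the mitochondrial RNase P that processes tRNAs. mldr fell by 0.59 in CHES-1-like nulls and rswl by 0.64 in the jumu deficiency. Of the genes for the mitochondrial genome, mtDNA-helicase, the replicative helicase, read 9.26, 9.23 and 9.23 in controls, 8.62, 8.65 and 8.53 in CHES-1-like nulls and 8.16, 8.19 and 8.20 in the jumu deficiency. Its groups are apart with the jumu deficiency lowest, with changes of -0.64 ± 0.04 and -1.06 ± 0.04. The RNA polymerase gene PolrMT fell by 0.54 and 0.47, and mTerf3 rose by 0.20 in the jumu deficiency.

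Among import genes the receptor gene Tom70 fell by 0.71 in CHES-1-like nulls and by 0.44 in the jumu deficiency, ttm50 fell by 0.73 in CHES-1-like nulls, and mge (maggie), the gene of the Tom22 subunit of the outer membrane translocase, fell by 0.27 in the jumu deficiency. The higher import calls in the jumu deficiency included Tim17a1 and ttm2, at 0.33 ± 0.06 and 0.31 ± 0.06, whose control means of 4.04 and 5.39 are at or near the receptor background.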

How the data were processed

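Total RNA of sorted mesodermal cells was measured in 9 samples, 3 per genotype, on 1-colour Affymetrix arrays. The authors deposited log2 signals per probe set. Their medians over all probe sets were 5.42 to 5.45 on control arrays, 5.44 to 5.51 on CHES-1-like null arrays and 5.49 on jumu deficiency arrays. Centring on these medians moved the small changes in the jumu deficiency. Of tools, affy alone appears in the submitters' processing notes; how background was corrected, probes summarised and values filtered is not given in the sources used here. Probe set signals flatten near background and saturate at the top, which understates changes of dim and very bright genes. Precision is limited by the number of arrays.

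The arrays hold 18952 probe sets. Without 183 controls 18769 remained for testing, and the platform annotation gave 1 gene for 13647, several for 402 and no entry for 4720. By gene identifier 13544 symbols were brought up to date with the Release 6 plus ISO1 MT annotation, used for names and gene order only, and 103 stayed as they were. A gene with several probe sets is represented by its brightest.

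The deposited log2 values were fitted by genotype with lmFit and eBayes of limma 3.58.1 (R 4.3.3), which left 6 residual degrees of freedom. Benjamini-Hochberg adjustment ran over all probe sets, with a threshold of 0.05, and the step was tested on simulated data. A change is a difference of group means on the log2 scale with the SE of the fit. The scaling was kept as deposited. The members and gene lists were chosen with earlier results of these data known. The text names, per comparison, up to 6 highest and 6 lowest members past the threshold whose arrays do not overlap, the 3 brightest and 3 dimmest, those called in opposite directions, those whose probe sets differ, up to 2 highest and 2 lowest per related list, tko and the targeted genes; mRpL12, mRpS29, bonsai, mEFTu2, the genes lower in both mutants and other exceptions were chosen after their values were seen. Lists of mesoderm, neural, epidermis, haemocyte, germ cell, endoderm and cell division markers were summed on the linear scale. Replicate numbers were not used as pairs: deviations of same-numbered arrays correlated at -0.14 to 0.15 and those of other pairs at -0.25 to 0.21. With 3 arrays a group this cannot exclude a shared collection. Promoter sequences were not used here.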

Additional observations from a re-analysis of the deposited data

How the results depend on the processing

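Of 66 calls in CHES-1-like nulls 63 held under each of the 14 alternatives of fit, scaling, filter and replicates, and mRpL2, mRpL45 and mRpS24 did not: mRpL45 was lost without CHES-1-like null replicate 2 or 3 or control replicate 1 or 3, and mRpS24 without any CHES-1-like null replicate or without control replicate 1 or 3. Of 21 calls in the jumu deficiency 14 held, and of 61 between the mutants 60 held, all but mRpL1, which was lost without jumu deficiency replicate 1 and with centring on the array median; no called member changed sign. Leaving out each replicate gave 62 to 64 lower members, 1 higher and medians of -0.35 to -0.32 in CHES-1-like nulls, 12 to 13 higher, 6 lower and medians of 0.01 to 0.02 in the jumu deficiency, and 60 to 62 higher, 0 lower and medians of 0.36 to 0.37 between the mutants. With each array centred on its median, the medians were -0.38 in CHES-1-like nulls and -0.0459 in the jumu deficiency, where 8 members were then higher and 13 lower. With each array centred on the median of the brighter 60% of probe sets, a setting chosen after seeing the data, the jumu deficiency median was 0.0503. The medians of all genes moved alike. With a minimum change of 1.5-fold 0 members were higher and 1 lower in CHES-1-like nulls, 0 and 0 in the jumu deficiency, and 4 were higher between the mutants. A variance trend with robust estimation gave 1 lower member between the mutants. The replicate number as a block, which the data do not bear out as a pairing, gave 64 lower and 1 higher in CHES-1-like nulls, 13 higher and 6 lower in the jumu deficiency, and 61 higher between the mutants. Beyond the centring and the fold minimum, the cause of these shifts was not tested. All members were above the receptor background; signal limits 5 import genes with every group mean below it and the cytosolic ribosomal protein genes near the top of the scale.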
